A study of Mus musculus with 42 samples.

Results

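The right side of the heart field in 5 mouse embryos with an inverted heart was set against the left side in 10 embryos with normal situs, to ask whether the inverted right carries the same transcripts as the normal left. If inversion were a perfect mirror image, the 2 groups would be the same molecular side. These are 15 of the 42 libraries in the series, 1 from each of 15 of its 21 embryos. All embryos were collected at E8.5 (stage E8.5i), when the direction of heart looping can be read, and the libraries are from the microdissected heart field, from which the heart tube itself had been removed. The inverted right comes from embryos 2_7, 4_6, 10_3, 18_2 and 32_2, which are homozygous for Ccdc40lnks, a nonsense allele of a motile cilium gene, and have leftward (inverted) looping. The normal left comes from 5 wild types (7_1, 8_1, 10_1, 17_7 and 22_4) and from the Ccdc40lnks/lnks embryos 22_1, 19_6, 17_1, 2_2 and 1_6. Looping was rightward in these 10 embryos, and the study grouped them as situs solitus. The other 6 mutants of the series also looped rightward but fell in a separate cluster, classed as heterotaxy. They are outside the main comparison and enter only where all 11 rightward mutants are named. The situs solitus and inverted groups were chosen by the study by clustering on right-left differences of its most asymmetric genes, so genes of that left-right signature and the nearness of the groups in them were selected for and are described here without a test. The inverted embryos and the mutants with normal situs carry the same allele, and the wild types lack it.

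In the mouse embryo, motile cilia of the node drive a leftward flow of fluid. NODAL, a secreted ligand of the TGFβ family, is then produced in the left lateral plate mesoderm, where its range and duration are limited by feedback inhibitors of the LEFTY family, and it sets the left identity of organ primordia. The heart field supplies cells to both poles of the growing heart tube and lies next to the tissue that gives rise to the lungs, under the control of BMP and WNT signals.

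Library totals in the series ranged from 36073684 to 62970327 counts, which is also the range of the inverted right, and from 38886687 to 55958371 in the normal left. Ccdc40 had 10.0 to 13.6 CPM (counts scaled to library size) in the inverted right, 9.81 to 12.5 in the left of the mutants with normal situs and 15.4 to 23.5 in the left of the wild types. Levels below are CPM after scaling the 30 libraries of the 15 embryos by the trimmed mean of M values (TMM), and log2 differences are inverted right minus normal left from an edgeR quasi-likelihood fit with sex as a covariate over all genes tested. A gene was said to match if the 95% interval of its log2 difference lay inside -0.5 to 0.5, that is within 1.41-fold. One normal left library stood apart. That of embryo 2_2 was the lowest of the 10 in Bmp2, Shox2, Wnt2 and Myh6, and its sum over 6 visceral endoderm markers was 27.8 CPM against 197 CPM or more in the other 9.

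The left-right signature of the study, 8 genes, is given as a description. Ccn4 (also known as Wisp1; chr15:66763060-66795050, plus strand, GRCm39) encodes a secreted matricellular protein and is a WNT target. It had 15.8, 17.1, 20.2, 23.1 and 27.9 CPM in the inverted right of 2_7, 4_6, 10_3, 32_2 and 18_2, and in the normal left from 5.69 CPM in 2_2, with a median of 20.7, to 31.7 in 17_7. The inverted left, at 8.37 to 13.3 CPM, lay below every inverted right library. Ccn4 averaged 20.8 ± 4.87 CPM in the inverted right and 19.1 ± 7.27 in the normal left, while the normal right averaged 10.3 ± 4.41. Hspb8, a small heat shock protein, averaged 10.7 ± 2.43 CPM in the inverted right and 9.87 ± 2.45 in the normal left. Retreg1, a receptor of the endoplasmic reticulum for autophagy, averaged 6.89 ± 2.90 CPM in the inverted right and 6.92 ± 1.77 in the normal left. All 5 inverted right libraries fell inside the normal left range for Ccn4 and Hspb8, and 4 of 5 did for Retreg1, with 18_2 above it at 11.7 CPM. The right-sided member Ptgfr, the receptor of prostaglandin F2α, was low in both groups, at 3.58 ± 0.42 CPM in the inverted right and 4.03 ± 1.20 in the normal left, against 6.15 ± 0.75 in the normal right.

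Of the other signature members, Pitx1, a homeobox transcription factor, ran from 0.86 CPM in 4_6 to 9.77 in 2_7 in the inverted right, with a mean of 4.84 ± 3.23, beside 5.08 ± 2.29 in the normal left. Postn, the matrix protein periostin, ran from 4.47 CPM in 4_6 to 51.8 in 10_3, against 10.3 to 129 in the normal left. Its log2 difference was -0.42. Trabd2b, a protease that inhibits WNT ligands, had 7.64 ± 1.05 CPM against 8.66 ± 2.06, and Misp3 had 6.34 ± 4.41 against 6.73 ± 3.34. The median log2 difference of the 8 signature genes was -0.10, beside -0.01 over all genes tested. Of the 8, only 1 matched (Hspb8), beside 48.8% of all genes.

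**Figure D1:**
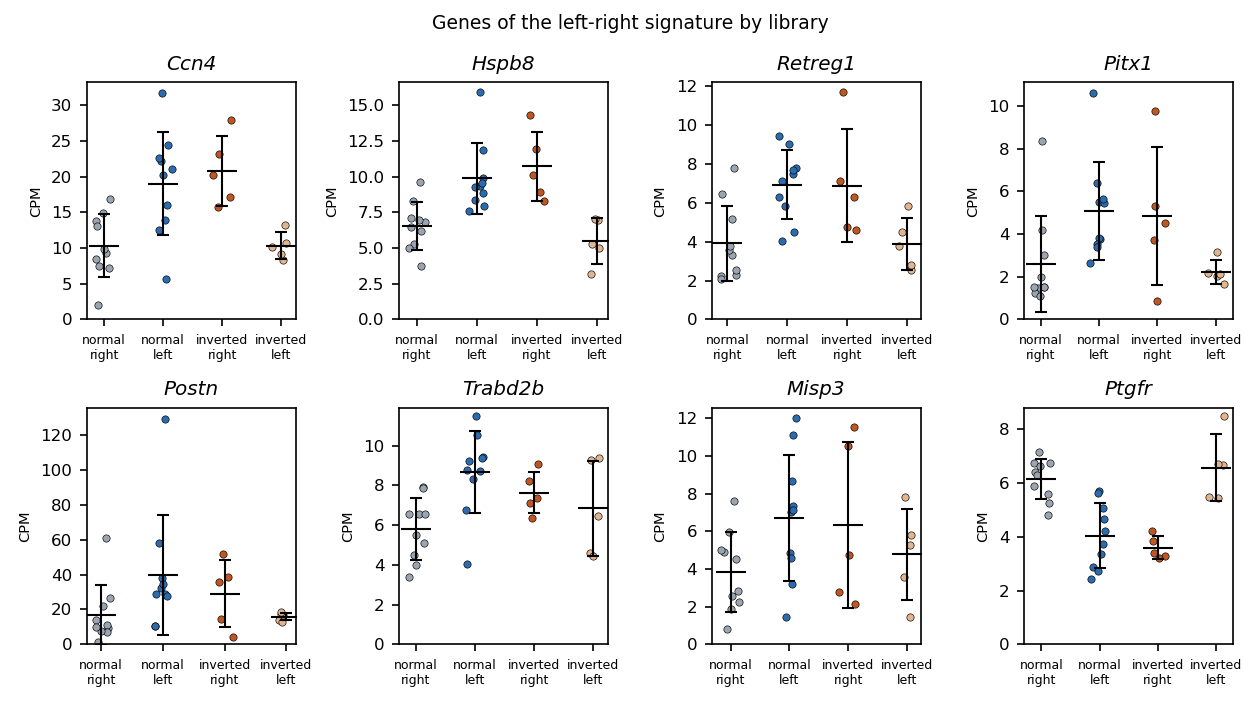
CPM of the 8 genes of the left-right signature in each library, in normal right (n = 10), normal left (n = 10), inverted right (n = 5) and inverted left (n = 5). Points are libraries and bars the mean ± SD, and the axes start at 0. The 5 inverted right libraries of Ccn4 sit between 15.8 and 27.9 CPM, inside the normal left range and above the inverted left.

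Across the transcriptome edgeR called 0 of 24025 genes at an adjusted p under 0.05 (0% of those tested), with 1122 genes at an unadjusted p under 0.05, 654 higher (2.72%) and 468 lower (1.95%) in the inverted right. DESeq2 on the same libraries called 24, of which 15 were higher. The median standard error of a log2 difference was 0.18. A match was shown for 11732 genes, or 48.8%, and 11508 genes neither matched nor had an unadjusted p under 0.05, so that for these the data set neither a difference nor a match. The same model with the normal right in place of the normal left also called 0 of 24009 genes (0%) by edgeR, with 1693 at an unadjusted p under 0.05, although Lefty2, a NODAL inhibitor of the left side, differed there by 3.23 on the log2 scale (edgeR adjusted p = 0.177). A count of 0 at this group size therefore does not by itself show that 2 sides are alike. Against the normal right 11137 of the 24009 genes matched, so a match by itself does not tell left from right. The 2 comparisons share the inverted right libraries.

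**Figure D2:**
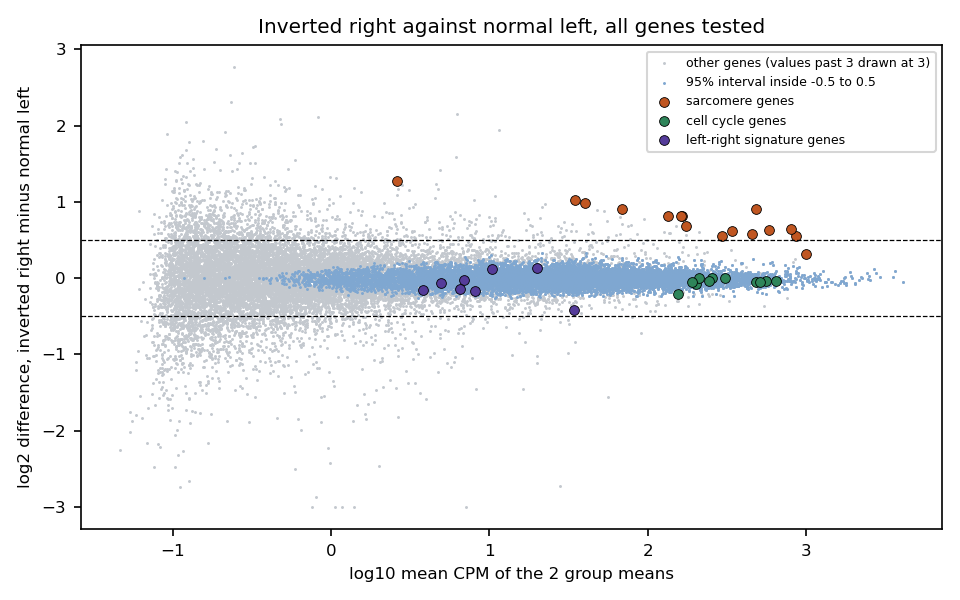
Log2 difference of inverted right minus normal left for the 24025 genes tested (vertical axis) against the log10 of the mean CPM of the 2 group means. Genes whose 95% interval lay inside the dashed lines at -0.5 and 0.5 are in pale blue, and the 11 cell cycle genes lie between the lines while 15 of the 16 sarcomere genes lie above the upper one.

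Genes that were sided in the wild types were also followed in embryos that had no part in choosing them. In the 5 wild types alone, 101 genes were higher on the left and 52 higher on the right in all 5 pairs (unadjusted p under 0.05 in a paired edgeR fit and at least 200 reads on average on either side). The inverted right was nearer to the left than to the right of the 11 mutants with rightward looping in 66 of the 101 left-sided genes (65.3%) and in 33 of the 52 right-sided ones (63.5%), beside 51.3% of all 23182 genes tested. Of these 11 mutants 6 are the heterotaxy embryos, and against the 5 situs solitus mutants alone the counts were 67 and 36. Those 5 were set apart by the study's clustering on genes sided in the wild types. The counts against them are therefore no independent check. The inverted left was nearer to the left in 39 of the 101 (38.6%) and in 30 of the 52 (57.7%), beside 50.6% of all genes. The rightward mutants themselves kept the wild-type side in 65 of the 101 and 34 of the 52. Col1a1 and Col3a1, fibrillar collagens, and Dcaf12l1 were among the left-sided genes for which the inverted right lay nearer to the left. These counts are a description with no test.

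Within the NODAL pathway, Smad2, Smad3 and Smad4, which carry the signal to the nucleus, and the cofactor Foxh1 all matched, 4 of 4 beside 48.8% of all genes, with log2 differences from -0.08 to 0.15. Of the receptors and co-receptors Acvr1b, Acvr2a and Acvr2b matched. Nodal itself was nearly off on every side, at 0.03 to 0.17 CPM in the inverted right and 0.05 to 0.27 CPM in the normal left, and Lefty1, its inhibitor of the midline, was at 0.02 to 0.47 and 0.13 to 0.44 CPM.

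Lefty2, the NODAL inhibitor that is itself induced by the pathway in the left mesoderm, lies on the plus strand at chr1:180720635-180726932 (GRCm39), and Bmp2, a BMP ligand, at chr2:133394079-133404816 on the plus strand. The study named Lefty2, Bmp2 and Gal from these embryos, so their tests are no independent evidence. Lefty2 had 1.55, 2.2, 2.64, 3.53 and 28.1 CPM in 10_3, 32_2, 18_2, 4_6 and 2_7, and from 0.77 to 5.08 CPM with a median of 1.60 in the normal left. Only 2_7 lay above the normal left range. The inverted left, at 0.10 to 0.49 CPM, lay below every inverted right and normal left library. The log2 difference of 1.42 ± 0.55 (SE) did not pass the test (edgeR adjusted p = 0.99, exact two-sided permutation p = 0.104), and it was 0.39 without 2_7. The co-receptor Cripto (Tdgf1) ranged from 1.67 to 48.9 CPM in the inverted right and from 0.65 to 34.1 in the normal left, with a log2 difference of 1.94 ± 0.86 that did not pass either (edgeR adjusted p = 0.99, exact permutation p = 0.0636). Furin, a convertase that processes NODAL and BMP precursors, averaged 27.6 ± 2.58 CPM against 23.4 ± 3.12, a log2 difference of 0.24 inside the limits of a match.

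Among the 7 BMP ligands tested Bmp2 had the largest log2 difference. Bmp2 had 33.9 CPM in 10_3 and 47.8 to 57.8 CPM in the other 4 inverted right libraries, against 13.7 to 50.5 CPM with a median of 35.6 in the normal left, and only 18_2 lay above that range. The log2 difference was 0.49 ± 0.19 (edgeR adjusted p = 0.99, exact permutation p = 0.044), and 0.39 without 2_2. The departure of Bmp2 from the mirror within embryos, the sum of the right minus left differences of inverted and situs solitus embryos on the log2 scale, was 0.87 (edgeR adjusted p = 0.689). With all 11 rightward mutants in place of the situs solitus embryos, a set that holds the 6 heterotaxy embryos and no wild type and so is no test against normal situs, it was 1.02 (edgeR adjusted p = 0.0414). Bmp4, Bmp5, Bmp6 and Bmp7 matched. Of 11 response genes 9 matched, beside 48.8% of all genes, among them Id1, Id2 and Id3, which encode inhibitors of basic helix-loop-helix factors, and Msx1 and Msx2. Of the antagonists Twsg1 and Gpc3 matched.

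Of 10 WNT target genes 7 matched, beside 48.8% of all genes, among them Axin2, a feedback inhibitor, and Lef1, a nuclear effector. One target was lower at an unadjusted p under 0.05, beside 1.95% of all genes. This was Sp5, a transcription factor, with 20.7 ± 2.88 CPM against 27.1 ± 7.39, a log2 difference of -0.38 with an interval from -0.74 to -0.03 (edgeR adjusted p = 0.99), and none of the 5 inverted right libraries lay above the normal left median. Wnt11, a ligand of the outflow tract and atrioventricular canal, had 4.49 ± 1.02 CPM against 3.73 ± 1.20, and all 5 libraries lay inside the normal left range. Wnt2, a ligand of cardiopulmonary progenitors, had 227 ± 30 CPM against 179 ± 72.1, again inside the range in 5 of 5. Rspo3, a secreted enhancer of WNT signals, had 6.46 to 11.9 CPM against 2.45 to 10.2 CPM, with 3 of 5 inverted right libraries above the range and a log2 difference of 0.62 ± 0.26 (edgeR adjusted p = 0.99, exact permutation p = 0.0366). Sfrp2, Wnt16 and Fzd10, which the study named from these embryos for a gained asymmetry, had intervals that covered 0. Their departures from the mirror were -0.92, -1.12 and -0.63 (edgeR adjusted p = 0.755, 0.77 and 0.804), which is no independent evidence. Wnt16 averaged only 0.56 CPM in the inverted right and 0.76 in the normal left. Of the 10 secreted modulators, 3 had a negative departure at an unadjusted p under 0.05 and 1 a positive one. The shares over all genes were 2.63% and 3.74%. Of the 10 ligands 1 matched and of the 10 secreted modulators 0 did, beside the same 48.8%.

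**Figure D3:**
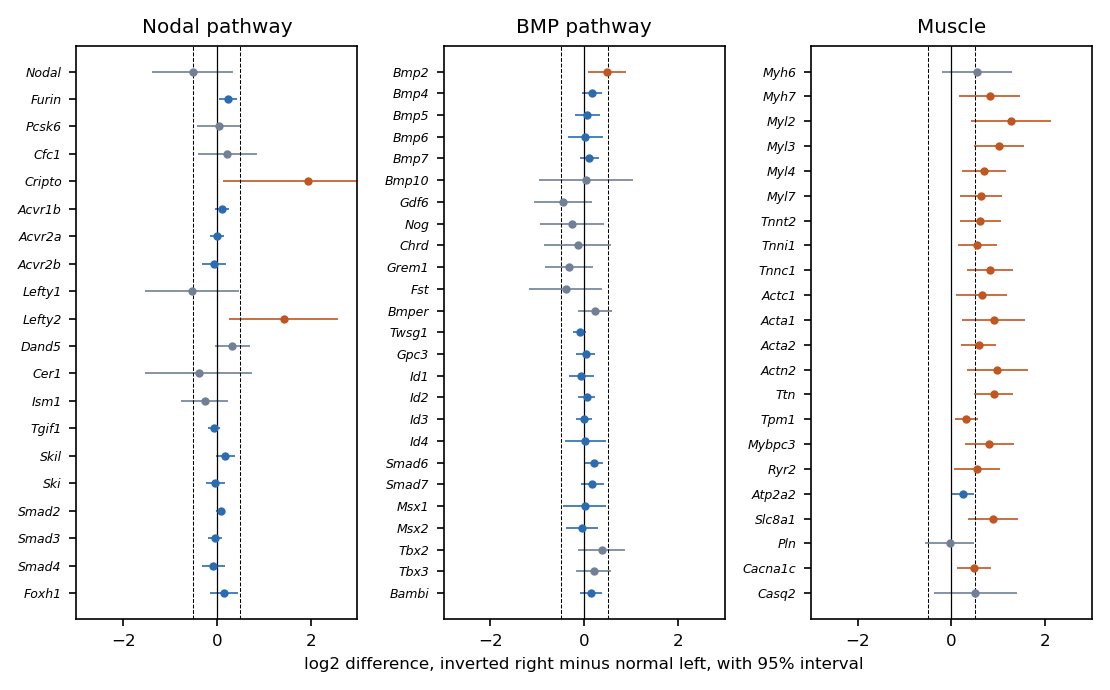
Log2 difference of inverted right minus normal left with its 95% interval for genes of the NODAL and BMP pathways and of muscle (sarcomere and calcium handling), with dashed lines at -0.5 and 0.5. Blue marks a match, orange an unadjusted p under 0.05 without a match, and grey neither. The 4 NODAL effectors are blue and 15 of the 16 sarcomere genes are orange.

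Genes of the contractile apparatus were higher in the inverted right on average and none matched. The 16 sarcomere genes all had a positive log2 difference, from 0.32 to 1.27 with a median of 0.75, beside a median of -0.01 over all genes. None was called by edgeR at an adjusted p under 0.05, 15 had an unadjusted p under 0.05 in that direction, beside 2.72% of all genes, and DESeq2 called 1, Ttn. The exception was Myh6, the atrial myosin heavy chain. Without embryo 4_6 the count was 9, and without 2_2 it was 15. Of 6 calcium handling genes, 4 were higher at an unadjusted p under 0.05 (2.72% of all genes), Slc8a1, Ryr2, Atp2a2 and Cacna1c, and 1 matched (Atp2a2; 48.8% of all genes).

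The sum of the 16 genes was 3968 CPM in 10_3 and 6503, 7244, 7288 and 8124.5 CPM in 2_7, 18_2, 32_2 and 4_6. In the normal left it ran from 2409 CPM in 2_2, with a median of 4575, to 7488 in 8_1, so that only 4_6 lay above that range. Ttn encodes titin, the elastic scaffold of the sarcomere, on the minus strand at chr2:76534136-76812891 (GRCm39). It had 345 CPM in 10_3 and 546, 661, 718 and 762 CPM in 2_7, 18_2, 32_2 and 4_6. The normal left ran from 197 CPM in 2_2 with a median of 281 to 716 in 8_1, so that 2 inverted right libraries lay above it and 3 inside. The log2 difference was 0.90 ± 0.20 (edgeR adjusted p = 0.713, exact permutation p = 0.0186), and DESeq2 gave an adjusted p of 0.0402. Myl3, a myosin light chain, was at 17.1 CPM in 10_3 and 49.1 to 57.7 CPM in the other 4, against 11.7 to 51.7 CPM, so that 3 of 5 lay above the range, a log2 difference of 1.02 ± 0.25 (edgeR adjusted p = 0.797, exact permutation p = 0.0253). Slc8a1, the sodium-calcium exchanger, had 36.9 to 81.5 CPM against 10.9 to 75.5, with 3 of 5 libraries above the range (exact permutation p = 0.0333, edgeR adjusted p = 0.95). For all 3 genes 10_3 was the lowest of the inverted right. The 3 were chosen after their values were seen, so their unadjusted permutation p are no independent evidence.

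The marker list of heart tube muscle, which shares 7 of its 8 genes with the sarcomere list, summed to 2308 to 4770 CPM in the inverted right with a median of 4116, and to 1020 to 4340 CPM with a median of 2680 in the normal left. The heart tube had been removed, and what part its remaining tissue has in the muscle genes was not tested. In bulk libraries, fewer cells of a type and less RNA per cell cannot be told apart. Of the markers, 6 of 8 were higher at an unadjusted p under 0.05, beside 2.72% of all genes, and Nppa, the atrial natriuretic peptide, was near 0 in both groups at 0.86 ± 0.34 and 0.72 ± 1.27 CPM. Of 11 cardiac transcription factors 3 were higher at an unadjusted p under 0.05, Tbx20, Nkx2-5 and Mef2c, beside the same 2.72%. Tbx20 had 159.9 ± 46.4 CPM against 112 ± 44.1, Nkx2-5 had 129.9 ± 27.9 against 100.1 ± 26.5, and Isl1 and Hand2 matched. Of 6 endothelial markers 3 were higher at an unadjusted p under 0.05, also beside 2.72%, Cdh5, Pecam1 and Tie1, which lay inside the limits of a match, while in the lists of sinus venosus, foregut, visceral endoderm, blood, neural tube, neural crest, paraxial mesoderm and extraembryonic mesoderm 0 members had an unadjusted p under 0.05 by edgeR in either direction. Neural tube markers summed to 10.5 to 38.1 CPM with a median of 13.8 in the inverted right and to 8.38 to 64.9 CPM with a median of 24.9 in the normal left, and 5 of the 6 had a negative log2 difference, with a median of -0.50. Their sum was lower on the right than on the left in 5 of 5 inverted embryos. In the situs solitus embryos it went both ways. It was lower on the right in 17_7, 1_6, 22_4 and 7_1 and higher on the right in 10_1, 17_1, 19_6, 22_1, 2_2 and 8_1. The inverted right library with the highest neural tube sum, 10_3, had the lowest sarcomere sum. The part of this tissue in the muscle values was not tested.

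Promoters of 3 sarcomere genes are shown because all 16 members of this list had a positive log2 difference. The 250 bases before the start of transcription (RefSeq, GRCm38.p6, a build other than that of the counts) were searched on both strands for the CArG box bound by SRF, the MEF2 box and the letters GATA. The CArG box was present in 4 of 16 sarcomere genes (Acta1, Actc1, Myl3 and Myl7) beside 1.62% of 27025 genes, the MEF2 box in 2 (Mybpc3 and Ttn) beside 3.42%, and GATA in 13 beside 57.4%. Capitals mark a CArG box in Myl3 (chr9:110763428-110763677, plus strand) and Actc1 (chr2:114052876-114053125, minus strand) and a MEF2 box in Ttn (chr2:76982548-76982797, minus strand), each written 5′ to 3′ on the strand of the gene. A match of letters is a description and not a bound site.
Myl3: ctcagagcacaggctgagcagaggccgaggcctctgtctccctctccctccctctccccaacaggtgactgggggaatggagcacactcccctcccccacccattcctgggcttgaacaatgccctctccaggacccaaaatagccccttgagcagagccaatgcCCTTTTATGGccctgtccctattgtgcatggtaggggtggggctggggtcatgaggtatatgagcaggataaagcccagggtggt
Actc1: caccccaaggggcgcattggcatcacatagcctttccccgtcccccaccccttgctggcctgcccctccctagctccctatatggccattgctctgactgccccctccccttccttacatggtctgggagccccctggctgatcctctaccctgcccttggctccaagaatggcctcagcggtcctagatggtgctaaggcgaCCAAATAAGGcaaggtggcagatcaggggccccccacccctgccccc
Ttn: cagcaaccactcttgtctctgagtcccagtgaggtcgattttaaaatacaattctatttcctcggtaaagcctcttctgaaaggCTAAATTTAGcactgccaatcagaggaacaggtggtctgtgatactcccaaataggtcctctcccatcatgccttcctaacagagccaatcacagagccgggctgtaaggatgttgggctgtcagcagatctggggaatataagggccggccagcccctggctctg

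The sides of each embryo were also compared with each other. In the inverted embryos the sum of the sarcomere genes was higher on the right than on the left in 5 of 5, by 1.56- to 2.54-fold with a median of 2.04. A mirror image would have it higher on the left in the situs solitus embryos, but it was higher on the right in 6 of 10, with right over left from 0.34 to 1.98 and a median of 1.17. For Lefty2 the right over left ratio was 5.78 to 140 in 5 of 5 inverted embryos, and the right was higher in 1 of 10 situs solitus embryos. For Bmp2 it was 1.76 to 3.04 in 5 of 5, and the left was higher in 7 of 10 of the situs solitus embryos.

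**Figure D4:**
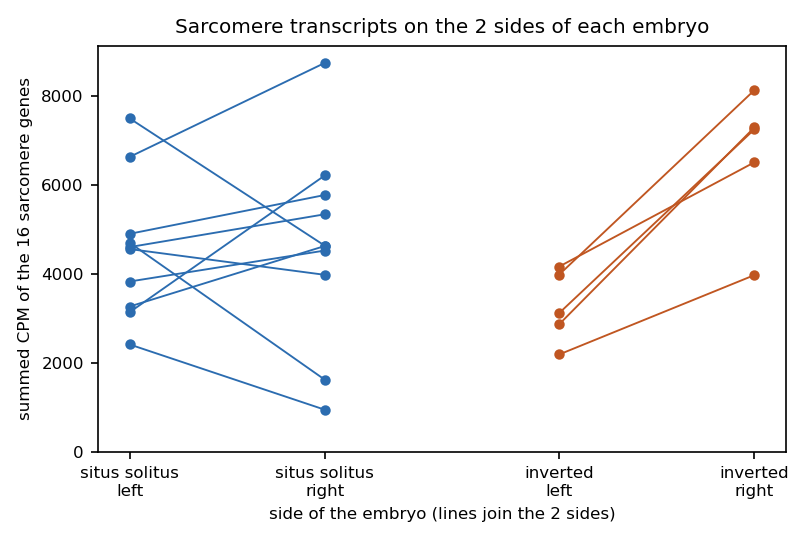
Summed CPM of the 16 sarcomere genes on the left and right of each embryo, with a line joining the 2 sides, for 10 situs solitus and 5 inverted embryos. All 5 lines of the inverted embryos go up from left to right by 1.56- to 2.54-fold, and those of the situs solitus embryos go both ways.

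The departure from a mirror was tested for each gene within embryos as the sum of the right minus left differences of the inverted and of the situs solitus embryos, which is 0 for a perfect mirror. edgeR with the embryo as a block called 0 of 25623 genes (0%), with 959 positive (3.74%) and 675 negative (2.63%) at an unadjusted p under 0.05, and DESeq2 called 21, of which 19 were positive. Of the sarcomere genes 14 of 16 were positive at an unadjusted p under 0.05, with a median of 1.06. That count rested on single embryos, since it was 7 without 18_2, 8 without 32_2 or without 4_6, and 9 without 17_7, without 1_6 or without 7_1. It was also 8 with a robust prior and 9 with DESeq2. Art3 had the smallest p of all genes, with 195 reads on average in its higher group and a departure of 1.94 (edgeR adjusted p = 0.198). Among genes with at least 200 reads the smallest p were those of Pde4dip, a sarcomere and centrosome scaffold, with 0.30 (edgeR adjusted p = 0.327), and of Sfxn3, Map3k20, Txlnb, a muscle protein of the taxilin family, and Vcan, the proteoglycan versican, with 0.36 to 1.31 (edgeR adjusted p = 0.658 to 0.689). Txlnb had 3.29 to 8.70 CPM in the inverted right, 1.07 to 7.16 in the normal left and 1.47 to 2.99 in the inverted left. Sfxn3 matched between the inverted right and the normal left, and it was low on the inverted left, at 4.12 to 5.53 CPM against 4.73 to 9.05 CPM in the normal right. On the negative side stood Gm56517, Kpna4, an importin, Ythdc2, an RNA helicase, Prrg1 and Kcng1, a potassium channel subunit, with -0.25 to -0.77 (edgeR adjusted p = 0.689 for each).

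No overlap between the groups was seen for 15 genes (0.0624% of those tested), 9 of them with at least 200 reads on average in either group. These 9 were named because their groups do not overlap, so their separation is a description and supports nothing. Stat3, a transcription factor downstream of cytokine receptors, was at 42.7 to 47.5 CPM in the inverted right and 29.5 to 41.2 CPM in the normal left, a log2 difference of 0.33 ± 0.07 (edgeR adjusted p = 0.713). It was also above the normal right, 28.0 to 38.3 CPM, and the inverted left, 27.0 to 41.9 CPM. Cd38, an ectoenzyme that consumes NAD, was at 21.8 to 27.5 CPM against 17.4 to 21.7 CPM (log2 difference 0.33 ± 0.07, edgeR adjusted p = 0.713). Prune2 and Adcy4, an adenylate cyclase, were also wholly above.

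Those wholly below differed by little. Kif15, a mitotic kinesin, was at 119 to 128 CPM against 129 to 147 CPM, a log2 difference of -0.17 ± 0.04 (edgeR adjusted p = 0.797). Dnaaf2, which assembles the dynein arms of motile cilia, was at 12.3 to 14 CPM against 14.2 to 17.2 CPM. Exo5, Adnp2 and Sharpin had log2 differences of -0.20, -0.10 and -0.07. All 5 lay within the limits of a match, as did Stat3 and Cd38.

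**Figure D5:**
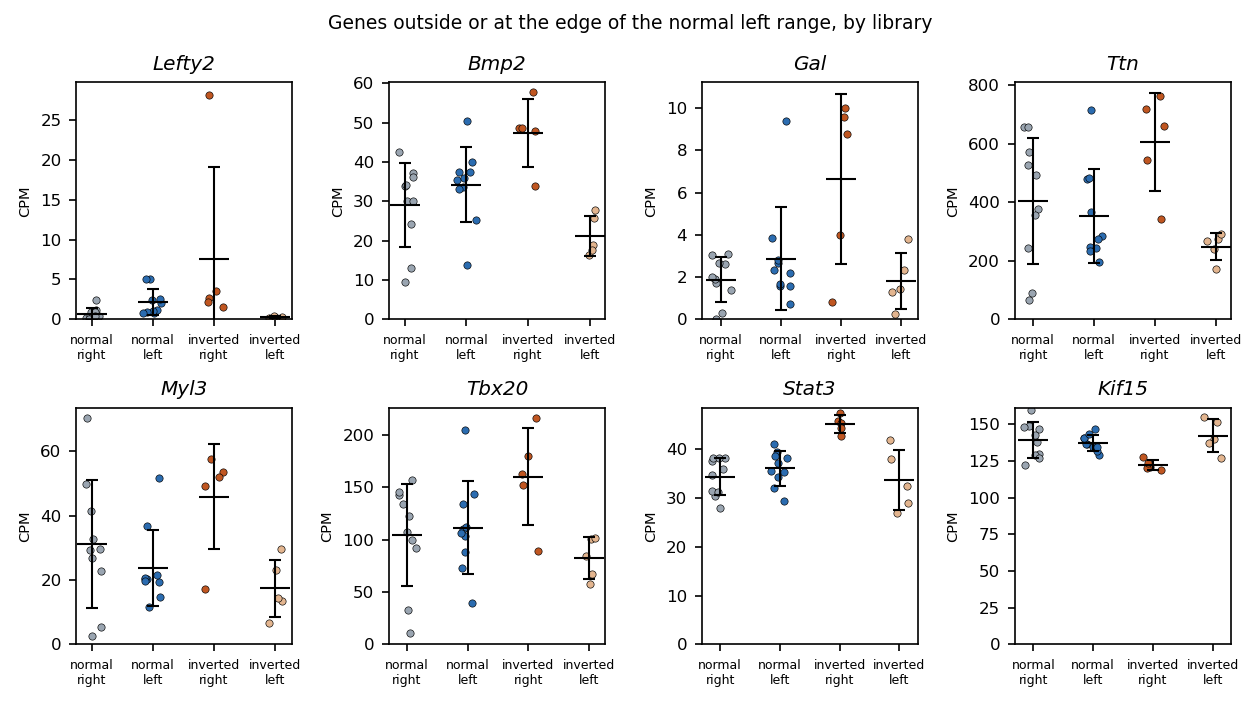
CPM of Lefty2, Bmp2, Gal, Ttn, Myl3, Tbx20, Stat3 and Kif15 in each library of the 4 side and situs groups, with mean ± SD (lower bars end at 0). Stat3 lies above and Kif15 below the whole normal left range, while the other 6 overlap it.

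All 11 cell cycle genes and 9 of 11 genes of glycolysis and hypoxia matched, beside 48.8% of all genes, with median log2 differences of -0.04 and -0.06. Of 11 Hox genes 3 matched and of 10 motile cilium genes 2 did, with 0 at an unadjusted p under 0.05 in either list by edgeR in this comparison. In the departure from the mirror 3 of the 11 Hox genes were negative at an unadjusted p under 0.05 and 0 positive. The share of negative ones over all genes was 2.63%, and the median departure of the Hox genes was -0.48. Of 12 collagen and matrix genes 5 matched and 2 were higher at an unadjusted p under 0.05 (2.72% of all genes), and of 8 second heart field genes 2 matched and 1 was higher. All 8 atrioventricular canal and sinoatrial genes had a positive log2 difference, with a median of 0.50 beside -0.01 over all genes. Of these 8, 1 matched and Bmp2 and Gal were higher at an unadjusted p under 0.05, and 4 had a positive departure from the mirror at an unadjusted p under 0.05, beside 3.74% of all genes. The study named Bmp2, Gal and Shox2 for an asymmetry gained in these same inverted embryos. Counts that hold them are therefore no independent evidence. Of 8 retinoic acid genes 4 matched, and of 10 genes of the venous pole and cardiopulmonary progenitors 4 did, with a median of -0.01. Osr1, a transcription factor of the venous pole, had 64.1 ± 8.20 CPM against 52.8 ± 14.3, with an interval from -0.05 to 0.64. Gal, the neuropeptide galanin, was at 0.84 CPM in 10_3 and 4.01 to 10.0 CPM in the other 4, against 0.73 to 9.39 CPM with a median of 2.25 in the normal left. Its log2 difference of 1.17 ± 0.47 did not pass the test (edgeR adjusted p = 0.99, exact permutation p = 0.108). Shox2, a factor of the sinus venosus, was at 5.93 to 12.9 CPM against 0.55 to 12.5, and Ism1, an inhibitor of NODAL, at 1.24 to 2.79 against 1.33 to 3.57.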

How the data were processed

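Left and right sides of the microdissected heart field of 21 embryos were sequenced (42 libraries from poly-A RNA, paired-end). The authors removed duplicates, used STAR with GRCm39 for alignment and featureCounts for counting (Subread 2.0.6, per the submitters' processing notes), and they deposited raw counts per gene, without normalization, for 56953 genes. The strand setting is not given in the sources used here, so overlapping genes and near-identical copies, as pseudogenes, are uncertain. Names came from GENCODE M39 for 56310 identifiers, and older symbols were matched through RefSeq.

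Totals were 36073684 to 62970327 counts. Genes were kept with filterByExpr, at a min.count of 5, a min.total.count of 10, a large.n of 50 and a min.prop of 0.2. Inverted right and normal left (5 and 10 libraries) were compared with edgeR 4.0.16 in R with TMM scaling and sex as a covariate, Benjamini-Hochberg adjustment and a threshold of 0.05, and the departure from the mirror with both sides of the 15 embryos and the embryo as a block. The 2 sides come from the same embryo, and the residuals of its sides correlated by 0.02 to 0.57 over 2000 genes. DESeq2 1.42.0 with a local fit was the alternative. Single genes outside the signature and not named for separation had an exact two-sided permutation test of mean log2 CPM (prior count 2). Intervals came from the F statistic. No pair of the 15 libraries was a copy (mean chi-square per gene of 15.9 or more). The p-values of inverted right against normal left measure the spread of levels between embryos. Those of the departure measure the spread between embryos of the right minus left difference. Both fits were also run on simulated counts with the same dispersion for every gene and no embryo effect. These are simpler than the real libraries, so the runs do not show how the fits behave here. Each embryo was left out in turn, and normalization, filter, prior, covariates and reference libraries were varied.

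The members and gene lists were chosen with earlier results of these data known. Named genes were those of the study's text, then for each direction the 10 largest log2 differences past the threshold without overlap and with at least 200 reads, or, where fewer than 5 passed, the 5 smallest p among such genes (likewise without the overlap condition for the departure, up to 5), matched genes of the lists, and list members. Genes of lists named for their values, such as Cripto, Furin, Rspo3, Ttn, Myl3, Slc8a1, Sp5, Dcaf12l1, Col1a1 and Col3a1, were chosen after their values were seen. The p-values of such genes are therefore no independent evidence. The situs solitus and inverted groups follow the study's clusters, and genotype, looping, side and sex follow the labels. Some genes of the lists are not reported here.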

Additional observations from a re-analysis of the deposited data

Results flagged for a closer look

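Among 108 combinations of a named gene and a group, 15 held a library far from the others by Dixon's test, of which chance gives about 1 in 20, and 14 came from embryos 2_2, 10_3 and 2_7. In the normal left, embryo 2_2 was far below the others in Trabd2b at 4.03 CPM, Bmp2 at 13.7, Shox2 at 0.554, Wnt2 at 28.0, Txlnb at 1.07 and Myh6 at 69.9, and embryo 22_4 was far above them in Exo5 at 49.1 CPM. In the inverted right, embryo 10_3 was far below the others in Myh7 at 72.0 CPM, Myl2 at 0.811, Myl3 at 17.1, Acta1 at 25.3, Tpm1 at 734 and Mybpc3 at 105. Embryo 2_7 was far above them in Lefty2 at 28.1 CPM and below them in Ythdc2 at 8.81 CPM.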

How the results depend on the processing

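The count of 0 genes called between inverted right and normal left became 24 with DESeq2, 3 with sex and genotype as covariates (Lpar2, Gm18180 and Gdf15) and 3 with the left of the 5 situs solitus mutants alone. The 3 genes called against those mutants were all lower (Lpar2, Gm18180 and Gm7335). It was 0 under the other edgeR settings run and with each embryo left out in turn. Matched genes numbered 8896 with males alone, the lowest, to 12426 with the left of all rightward embryos, and 10681 to 11825 with each embryo left out. The departure from the mirror became 21 genes with DESeq2, 1 (Art3) with no filter on low counts and 16 with all 11 rightward mutants, 6 of them heterotaxy embryos, in place of the situs solitus embryos, and it was 0 with no replicate block and in every fit with 1 embryo left out. Sarcomere genes higher at an unadjusted p under 0.05, a count added after the data were seen, numbered 9 to 15 with each embryo left out, the lowest without 4_6, and 11 against the situs solitus mutants. The left-sided genes nearer to the left numbered 65 to 68, and the right-sided ones 32 to 36, with each inverted embryo left out. Wnt16 changed sign to 0.016 with the wild types alone, and the cause was not tested. DESeq2 gave an adjusted p below the threshold to Cd38, Stat3, Prune2, Adcy4, Kif15 and Ttn.

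With 5 embryos against 10 and a median standard error of 0.18 on the log2 scale, weak or variable genes could neither match nor differ.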
